A study of Mus musculus with 10 samples.

Results

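Processed pseudogenes are copies of messenger RNAs that were reverse transcribed and inserted back into the genome. They lack the introns of the gene they came from, usually lie far from it, and rarely have a promoter of their own. Genes that are transcribed at a high level in the germ line, such as those of ribosomal proteins and of glycolysis, have left many of them. A young copy still has nearly the sequence of its parent, so that a short read from either can be placed on the other.

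The 300 processed pseudogenes described here were chosen by their level. They are the rows annotated as processed pseudogene with the highest mean FPKM (fragments scaled to a length per gene and library size) over all 10 libraries. They were taken from 938 with a mean of at least 1 FPKM, from 4070 with a count in any library and from 9999 in the table, which lists 55359 genes. Both groups entered that mean, so the levels below are a description, while the difference between the groups was not used for the choice. A total of 59 carry the symbol of a cytosolic ribosomal protein gene followed by ps, 37 the symbol of another gene followed by ps, 196 a Gm number, which names no parent, and 8 another symbol.

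The libraries were made from C2C12 cells, a line of mouse myoblasts that fuse into myotubes in low serum. In 5 of them (si-Control) the cells had received a control siRNA and in 5 (si-Fndc1) an siRNA against Fndc1, which codes for a secreted protein with fibronectin type III domains, at 100 nM in both groups. Per the labels, all were collected after 4 days of differentiation, whereas the text of the series names a shorter time after transfection. Every sample is a culture of the same line with a transient knockdown, and the labels do not say that the replicates came from separate cultures (the study states that its experiments were repeated independently, without naming these libraries), so the p-values measure the spread between these samples, which may be technical.

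The si-Control libraries held from 66771605 to 75995168 counts each, the si-Fndc1 libraries from 56332844 to 72839369. Fndc1 itself was at 27.8 ± 2.04 FPKM in si-Control and 20.9 ± 1.70 in si-Fndc1 (SD, n = 5 each; edgeR log2 fold change -0.40 ± 0.07 (SE), adjusted p = 0.00093). The summed level of 10 myotube markers ranged from 4064 to 4543 FPKM (si-Control) and from 3817 to 4568 FPKM (si-Fndc1), so both groups carried the markers of the labelled cell line. The summed level of 10 hepatocyte markers, all detected, ranged from 0.193 to 5.74 FPKM across si-Control libraries but from 44.3 to 165.8 across si-Fndc1 libraries, and the 4 fibroblast markers summed to 376.6 to 418.5 and 225.7 to 248.2. These lists moved with the group in the same libraries as the results below, and their part in them was not tested. In bulk RNA, fewer cells of a type and less RNA per cell cannot be told apart.

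The sequences of these rows are close to those of coding genes. For 211 members (70.3%) a locus with the same gene identifier was found in the mouse build NCBIM37 (GENCODE vM1), and 209 of those aligned to a coding transcript over at least 100 bases. The median identity was 99.4% (range 89.3% to 100%), 149 differed at 5 positions or fewer, and 37 at none. In 205 the longest run without a difference was at least 100 bases, so that a read inside such a run could not be assigned from its own sequence. The best match was a cytosolic ribosomal protein gene for 99 of the 209, including 47 of the 130 with a Gm number. Where a symbol named a parent and the sequence gave a match, they were the same gene for 68 of 70.

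Gapdh, the glycolytic glyceraldehyde-3-phosphate dehydrogenase, is shown first because 6 of the members match it, among them the highest member, Gm13394. The 100 coding bases below are bases 399 to 498 of the coding sequence, with capitals where a copy differs from the coding gene. In NCBIM37 they lie, for Gm13394 at chr2:28789539-28789638 on the minus strand, for Gm7336 at chr7:107909730-107909829 on the minus strand, for Gm2606 at chr15:12505135-12505234 on the plus strand and for Gm12033 at chr11:20235426-20235525 on the minus strand. The Gapdh gene spans chr6:125111871-125116485 on the minus strand. The deposited data list Gm7336 on the plus strand of chromosome 7, whereas its NCBIM37 locus is on the minus strand. The sequence shown for Gm7336 may therefore not be that of the counted locus.
Gapdh: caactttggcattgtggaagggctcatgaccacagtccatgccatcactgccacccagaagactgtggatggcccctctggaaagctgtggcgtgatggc
Gm13394: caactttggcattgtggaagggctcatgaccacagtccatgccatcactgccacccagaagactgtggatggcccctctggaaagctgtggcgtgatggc
Gm7336: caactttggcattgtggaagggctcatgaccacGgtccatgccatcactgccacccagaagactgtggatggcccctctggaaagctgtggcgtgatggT
Gm2606: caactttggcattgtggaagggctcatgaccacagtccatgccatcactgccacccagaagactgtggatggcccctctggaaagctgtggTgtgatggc
Gm12033: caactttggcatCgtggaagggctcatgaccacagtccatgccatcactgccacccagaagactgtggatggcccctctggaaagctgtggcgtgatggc
Over their whole alignments Gm13394 and Gm12033 each differed from Gapdh at 2 of 1251 bases, Gm2606 at 4 of 1253 and Gm7336 at 14 of 1002.

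Rpl21, which codes for a protein of the large ribosomal subunit, is shown because its copies held nearly all the counts of the family. Which locus these reads came from was not tested. The window is bases 333 to 432 of the coding sequence, with Gm10163 at chr9:88286007-88286106 on the plus strand, Rpl21-ps15 at chrX:147649761-147649860 on the minus strand and Gm13370 at chr2:24841836-24841935 on the plus strand. The capitals at the fourth base and at the last are shared by all 3 copies.
Rpl21: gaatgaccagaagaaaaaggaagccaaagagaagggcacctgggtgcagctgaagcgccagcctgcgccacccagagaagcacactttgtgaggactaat
Gm10163: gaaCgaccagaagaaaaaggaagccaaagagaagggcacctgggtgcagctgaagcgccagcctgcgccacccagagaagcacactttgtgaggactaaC
Rpl21-ps15: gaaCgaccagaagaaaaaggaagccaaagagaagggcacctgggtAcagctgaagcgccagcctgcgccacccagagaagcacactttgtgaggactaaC
Gm13370: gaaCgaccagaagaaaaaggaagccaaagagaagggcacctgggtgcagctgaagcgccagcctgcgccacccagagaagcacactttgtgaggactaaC
The copies differed from Rpl21 at 2 of 547, 3 of 541 and 2 of 483 aligned bases.

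Rpl35a, another gene of the large subunit, is shown for a copy that was high in only some libraries of a group. The window is bases 57 to 156, with Rpl35a-ps3 at chr17:29274094-29274193 on the minus strand and Rpl35a-ps2 at chr1:183172296-183172395 on the minus strand, and both copies carry their single difference from Rpl35a at its last base.
Rpl35a: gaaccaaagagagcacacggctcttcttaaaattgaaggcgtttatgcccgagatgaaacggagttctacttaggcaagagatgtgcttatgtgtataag
Rpl35a-ps3: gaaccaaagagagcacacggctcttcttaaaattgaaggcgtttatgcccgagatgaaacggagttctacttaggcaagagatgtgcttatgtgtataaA
Rpl35a-ps2: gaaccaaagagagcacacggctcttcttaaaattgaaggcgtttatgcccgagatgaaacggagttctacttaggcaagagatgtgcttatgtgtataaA

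Eef2, which codes for translation elongation factor 2, is shown for an older copy that moved apart from its parent. The window is bases 1359 to 1458, with Eef2-ps2 at chr4:142833046-142833145 on the minus strand.
Eef2: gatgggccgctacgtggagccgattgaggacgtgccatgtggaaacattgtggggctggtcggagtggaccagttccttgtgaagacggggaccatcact
Eef2-ps2: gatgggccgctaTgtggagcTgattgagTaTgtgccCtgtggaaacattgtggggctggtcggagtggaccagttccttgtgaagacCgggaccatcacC
Eef2-ps2 differed from Eef2 at 41 of 1345 aligned bases.

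As a group, the processed pseudogenes took a larger share of the reads after the knockdown. The 300 members held 1.22% ± 0.0465 of all counts in si-Control and 1.41% ± 0.0579 in si-Fndc1 (SD, n = 5 each), a ratio of 1.16. In si-Control the shares were 1.22%, 1.30%, 1.20%, 1.17% and 1.20%, and in si-Fndc1 1.39%, 1.33%, 1.39%, 1.49% and 1.43%, so every si-Fndc1 library exceeded each si-Control library (p = 0.00794 by a two-sided exact permutation test, the smallest that 5 against 5 libraries can give). The genes listed by symbol as cytosolic ribosomal proteins moved alike, from 2.22% ± 0.150 to 2.73% ± 0.131 of the counts (exact permutation p = 0.00794). That list takes Rpl or Rps with a number and optional letters, a pattern that genes of Rps6k kinases also fit. Its share covers tested and untested genes.

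**Figure D1:**
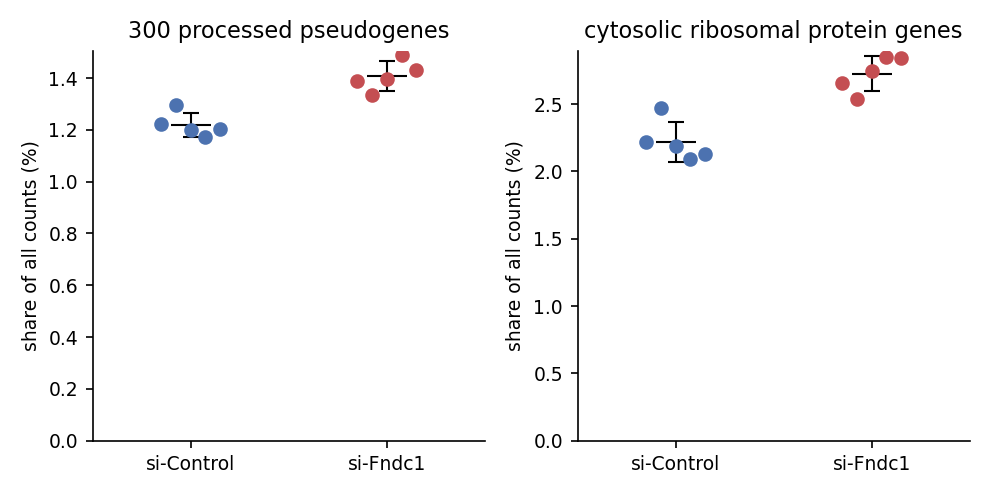
Share of all counts of a library (%) held by the 300 processed pseudogenes (left) and by the genes listed by symbol as cytosolic ribosomal proteins (right), a list that Rps6k kinase genes also fit, with a point per library, and bars for the mean and SD of 5 libraries per group. On the left the si-Control libraries lie at 1.17% to 1.30% and the si-Fndc1 libraries at 1.33% to 1.49%.

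In edgeR's quasi-likelihood test over 13548 genes, 100 members were higher and 26 lower in si-Fndc1 at a Benjamini-Hochberg adjusted p under 0.05. That is 33.3% and 8.67% of the members, where 17.3% of all tested genes rose and 17.2% fell (34.4% in either direction). The levels differed, with a median mean FPKM of 27.3 for the members and 5.20 for all tested genes. The median log2 fold change of the members was 0.21, beside 0.0043 over all tested genes, and 213 of the 300 were above 0. For 94 members the normalised CPM (counts scaled to library size) values of the groups did not overlap, which held for 25.1% of all tested genes. Among the 638 processed pseudogenes with a mean of at least 1 FPKM that rank below them, 127 rose and 32 fell, with a median of 0.18. Of the 11219 protein coding genes tested, 1988 rose and 2164 fell (median -0.0052), and of 57 unprocessed pseudogenes, which arise by duplication of DNA, 13 rose and 6 fell. Among 529 long noncoding RNA genes 42 rose and 45 fell.

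**Figure D2:**
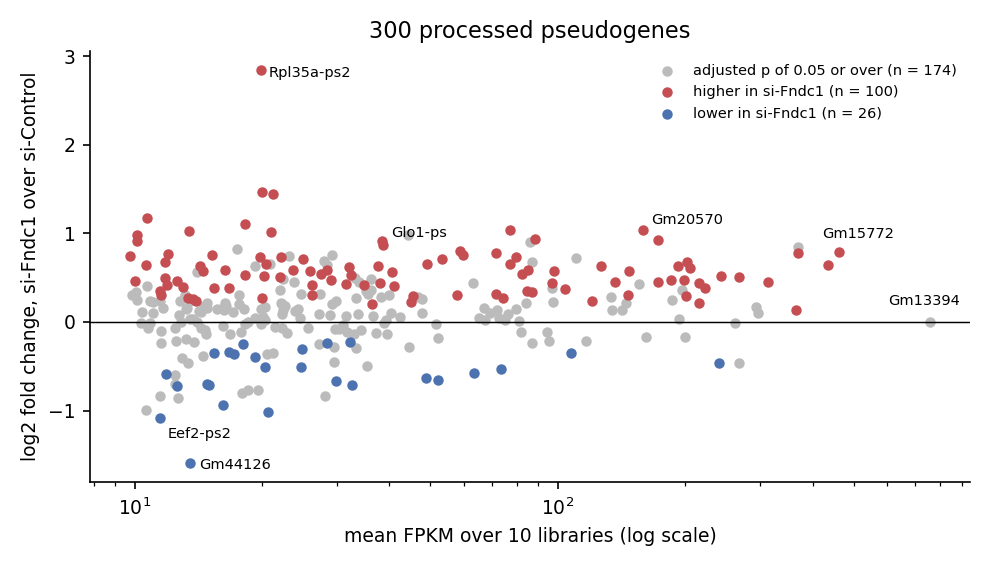
Log2 fold change of si-Fndc1 over si-Control against the mean FPKM over 10 libraries (log scale), with a point per processed pseudogene, in red for the 100 that rose, blue for the 26 that fell and grey for the other 174. Red points occur at all levels, and the highest member, Gm13394, is at 0.

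The members are short, and the other tested genes below 2000 bases, further processed pseudogenes among them, also had medians above 0. The members' median length was 536 bases (75.3 to 2633), against 3800 over all tested genes. Length here is the one implied by the ratio of counts to FPKM, scaled to the listed spans of the members. Whether it is that of a single transcript is not given. Its median was 1805 bases for the 90 tested genes listed as ribosomal proteins. Across all 13548 genes the log2 fold change fell with length (Spearman's rho -0.19, across genes, which are not independent replicates, and which share the libraries), and across the members rho was -0.21. Below 500 bases, 57 of 144 members rose (39.6%) and 10 fell, with a median of 0.28, while 122 of 787 other genes rose (15.5%) and 35 fell, with a median of 0.17. From 500 to under 1000 bases the medians were 0.14 for 109 members and 0.11 for 749 other genes, and from 1000 to under 2000 bases 0.11 for 43 members and 0.072 for 1598. The other genes include the 638 processed pseudogenes ranked below the members, with a median length of 557 bases and a median log2 fold change of 0.18. These classes therefore do not set processed pseudogenes against other kinds of gene. Nor are their levels alike, since the other genes enter from a mean of 0.5 FPKM and the members from 9.76. How far level alters the shares called was not tested. With the trend of counts with length taken out of each library, 66 members rose and 47 fell, and the median was 0.05. These are 22.0% and 15.7% of the members, beside 18.1% and 16.8% of all tested genes under the same offset, so the excess of rises over falls was smaller with it. The trend was fitted on all tested genes, the members and other processed pseudogenes included. The offset may therefore also take out a shift of their own, and the 2 cannot be told apart here. Which part of the trend is technical was not tested.

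**Figure D3:**
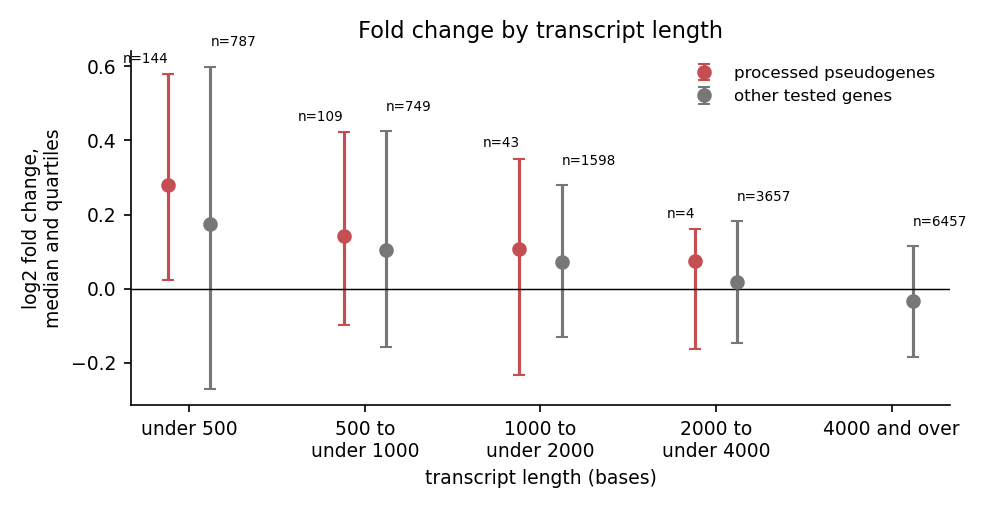
Median log2 fold change (points) with quartiles (bars) by length in bases, as implied by counts and FPKM. Shown are the 300 processed pseudogenes (red) and the other tested genes (grey, including processed pseudogenes of lower rank), with the number of genes above each bar. Medians fall from 0.28 and 0.17 below 500 bases to -0.033 for genes of 4000 bases and over, a class without members.

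The 10 most abundant members held 21.9% of the members' summed FPKM, and 45 members had a mean of at least 100 FPKM. Gm13394, the Gapdh copy, had the highest level. It overlaps another gene with counts on the same strand, so reads of that gene may be included in the level of Gm13394. Its FPKM was 707, 819, 725, 689 and 855 in si-Control and 637, 633, 857, 836 and 815 in si-Fndc1, with complete overlap of the groups (log2 fold change 0.00 ± 0.10 (SE), adjusted p = 0.99). Gm15772, a copy of Rpl26 (large ribosomal subunit), had an FPKM of 352, 379.7, 325, 326 and 322 in si-Control and 559, 542, 579, 604 and 638 in si-Fndc1. All 5 si-Fndc1 libraries were above all si-Control libraries (log2 fold change 0.79 ± 0.06 (SE), adjusted p = 1.4e-05). Gm9794, for which no sequence was found, behaved likewise, at 340.1 ± 28.0 FPKM in si-Control and 529 ± 28.9 in si-Fndc1 (0.64 ± 0.06, adjusted p = 3.3e-05).

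Rps12-ps3, which has no difference from Rps12 (small ribosomal subunit) in 469 bases, had an FPKM of 279, 323, 281, 228 and 250.3 in si-Control and 329.7, 482, 417, 541 and 561 in si-Fndc1. The lowest si-Fndc1 library was just above the highest of si-Control (log2 fold change 0.78 ± 0.14 (SE), adjusted p = 0.0017). Rps12-ps3 overlaps another gene with counts on the other strand. Gm10123 matches Ppia, the gene of the prolyl isomerase cyclophilin A, without a difference over 721 bases. Its FPKM was 378, 178, 226, 394 and 151 in si-Control and 256, 648, 391, 743 and 322 in si-Fndc1, a wide spread within both groups (log2 fold change 0.84 ± 0.35 (SE), adjusted p = 0.09). Gm7336, whose NCBIM37 locus differs from Gapdh at 14 positions and may not be the counted one, was at 223 ± 10.9 FPKM in si-Control and 315 ± 44.6 in si-Fndc1 (0.51 ± 0.08, adjusted p = 0.001). Gm5559 was at 267 ± 10.8 FPKM in si-Control and 362 ± 60.5 in si-Fndc1 (0.45 ± 0.09, adjusted p = 0.004). Gm15459, Rpl3-ps1 and Rps3a2 had log2 fold changes of 0.13, 0.10 and 0.17. Of these only Gm15459 passed the test (adjusted p = 0.036), and it no longer did with the length offset (adjusted p = 0.22) or when either si-Control replicate 3 or 4 or si-Fndc1 replicate 1, 2, 4 or 5 was left out (adjusted p = 0.062 to 0.085).

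Among members that passed the test with groups that did not overlap, 5 of the 8 largest rises match ribosomal protein genes, and 4 of those are described here. Of the 209 members with a match, 99 (47.4%) match such a gene. Gm15526, a partial copy of Rpl29 of 204 bases, rose from 6.58 ± 1.96 to 14.8 ± 2.94 FPKM (1.17 ± 0.22, adjusted p = 0.0024). Its si-Control mean was below the lowest mean of a member, 9.76 FPKM. It reached the list through si-Fndc1, so the choice favours its rise. Gm7079, a copy of Rps29, was at 11.6 ± 3.27 FPKM in si-Control and 24.8 ± 5.40 in si-Fndc1 (1.11 ± 0.21, adjusted p = 0.0021). Gm6136, a copy of Rpl6, had an FPKM of 62.0, 51.2, 46.5, 50.3 and 44.0 in si-Control and 113, 73.6, 132, 94.0 and 105 in si-Fndc1. Its groups were well apart (log2 fold change 1.04 ± 0.14 (SE), adjusted p = 0.00036), and the other 2 copies of Rpl6, Rpl6l and Gm6807, rose by 0.92 and 0.66. Rpl23a-ps3, at 1 difference from Rpl23a in 471 bases, had an FPKM of 63.2, 70.7, 56.2, 53.8 and 60.2 in si-Control and 109, 107, 94.8, 159 and 107 in si-Fndc1 (log2 fold change 0.93 ± 0.13 (SE), adjusted p = 0.00042).

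The other 3 of these rises were Gm20570 and Gm15682, for which no sequence was found, and Gm14287. Gm20570 was at 105 ± 18.8 FPKM in si-Control and 213 ± 29.7 in si-Fndc1 (1.03 ± 0.14, adjusted p = 0.00025) and Gm15682 at 14.0 ± 1.42 FPKM in si-Control and 28.0 ± 2.12 in si-Fndc1 (1.01 ± 0.08, adjusted p = 2e-05). Gm14287 aligned without a difference to 108 bases of Ywhaz, which codes for 14-3-3 zeta, and was at 6.82 ± 2.45 FPKM in si-Control and 13.5 ± 0.913 in si-Fndc1 (0.98 ± 0.26, adjusted p = 0.013). Like Gm15526, it was below 9.76 FPKM in si-Control and reached the list through si-Fndc1. All 8 kept an adjusted p under 0.05 with the length offset, at log2 fold changes of 0.76 to 1.004. Several lie over other genes: Gm15526 over Chn2, Gm6136 over Dis3l2 and Gm15682 over Mob1b, all on the other strand, and Gm7079 within Gm14820 on the same strand. Use of the strand in counting is not given in the sources used here, so reads of these neighbours may be included.

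The falls were fewer, and the copies named among them match genes of several kinds, 2 of them ribosomal protein genes. Eef2-ps2 had an FPKM of 16.5, 15.3, 15.2, 15.7 and 15.2 in si-Control and 6.14, 6.01, 7.51, 8.47 and 8.55 in si-Fndc1. The highest si-Fndc1 value was well below the lowest of si-Control (log2 fold change -1.08 ± 0.10 (SE), adjusted p = 4.4e-05). Csnk2a1-ps3, named for the catalytic subunit of casein kinase 2, had an FPKM of 15.9, 14.7, 16.3, 16.8 and 14.8 in si-Control and 10.4, 9.32, 10.0, 9.72 and 7.86 in si-Fndc1, again with groups well apart (log2 fold change -0.72 ± 0.08 (SE), adjusted p = 7.2e-05). Eef2-ps2 and Csnk2a1-ps3 had si-Fndc1 means of 7.33 and 9.46 FPKM, below the lowest mean of a member, 9.76. Both reached the list through si-Control, so the choice favours their falls. Btf3-ps1, named for a subunit of the complex that binds nascent polypeptides, was at 36.7 ± 3.70 FPKM in si-Control and 23.0 ± 1.54 in si-Fndc1 (-0.67 ± 0.08, adjusted p = 0.00014) and lies within Pam on the same strand. Gm6180, a copy of the actin-severing cofilin gene Cfl1, was at 18.3 ± 1.83 FPKM in si-Control and 11.2 ± 1.26 in si-Fndc1 (-0.71 ± 0.10, adjusted p = 0.00041).

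Gm10073, a copy of Rplp1 of the ribosomal stalk, was at 40.6 ± 8.36 FPKM in si-Control and 24.6 ± 3.18 in si-Fndc1 (-0.71 ± 0.14, adjusted p = 0.003), and Gm12922, a diverged copy of Rps2 with 94 differences in 882 bases, at 64.0 ± 10.5 FPKM in si-Control and 40.4 ± 8.80 in si-Fndc1 (-0.66 ± 0.16, adjusted p = 0.0088). Gm5854 and Gm2999, without a sequence here, were at 27.7 ± 7.74 FPKM in si-Control and 13.6 ± 3.98 in si-Fndc1 (-1.02 ± 0.24, adjusted p = 0.0081) and at 21.3 ± 4.71 FPKM in si-Control and 11.1 ± 1.70 in si-Fndc1 (-0.94 ± 0.15, adjusted p = 0.00091). With the length offset these 8 were lower still, at log2 fold changes of -1.19 to -0.74. Among all members the lowest fitted value was that of Gm44126 (-1.59, adjusted p = 0.032), whose groups overlapped.

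Among the 59 members with the ps symbol of a ribosomal protein, 23 rose (39.0%) and 0 fell, with a median log2 fold change of 0.30. At an unadjusted p under 0.05, 1 of them was lower, and by DESeq2 0 fell. Of the 37 with another ps symbol, 8 rose and 7 fell (median 0.11), and of the 196 with a Gm number 67 rose and 19 fell (median 0.21). With the length offset the ribosomal protein ps members had 18 rises and 3 falls, the other ps members 5 and 11, and the Gm members 41 and 32. Grouped by sequence, 39 of 99 members that match a ribosomal protein gene rose and 3 fell, and 33 of 110 that match another gene rose and 15 fell. Of the 90 tested genes listed by symbol as ribosomal proteins, a list that Rps6k kinase genes also fit, 59 rose and 7 fell (median 0.33). No test compared these lists.

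A total of 101 members overlap another gene with counts, 47 of them on the same strand and 54 only on the other. Of these, 43 rose and 4 fell (median 0.30), and of the 199 that overlap none, 57 rose and 22 fell (median 0.18), a difference that was not tested. Members lie on 20 chromosomes, 18 of them on the X.

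A symbol gave a parent for 91 members, on 65 genes. The parent usually held more reads: the pseudogene had fewer counts in 84 of the 91 pairs, with a median of 13.0% of the parent's count. Of the 65 parents 29 rose (44.6%) and 5 fell, with a median log2 fold change of 0.20, and the median of the 91 pseudogenes was 0.21. Pseudogene and parent both rose in 21 pairs and both fell in 1. In 24 pairs the parent rose and the pseudogene did not pass the test, and in 7 the pseudogene rose and the parent did not pass. In 1 pair the pseudogene rose and the parent fell. In 6 pairs the pseudogene fell and the parent did not pass.

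Among the pairs with the highest pseudogene level, Rps12-ps3 rose with Rps12 (0.78 and 0.65). Rpl10-ps6, at 1 difference from Rpl10 in 642 bases, had an FPKM of 157, 184, 120.5, 147 and 148 in si-Control and 248, 213, 225, 239 and 246 in si-Fndc1, with groups apart (log2 fold change 0.64 ± 0.09 (SE), adjusted p = 0.00051), and Rpl10 rose by 0.44. Rpl34-ps1 and Rpl34 rose by 0.29 and 0.25. Rps10-ps2 rose by 0.48 (adjusted p = 0.00017) beside -0.15 for Rps10 (adjusted p = 0.61). Rpl17-ps10 rose by 0.38 (adjusted p = 0.034) and Rpl17 by 0.76 (adjusted p = 0.037), both with groups that overlapped, and both calls were lost when some single libraries were left out. Tpt1-ps3, named for a translationally controlled tumour protein, was at -0.02 (adjusted p = 0.91) while Tpt1 rose by 0.19 (adjusted p = 0.031). With the length offset Tpt1-ps3 passed the test as a fall (-0.18, adjusted p = 0.038), and the call of Tpt1 was lost with a replicate block (adjusted p = 0.090), without the filter on low values (adjusted p = 0.060) and when any 1 of si-Control replicates 1, 3, 4 and 5 or si-Fndc1 replicates 3, 4 and 5 was left out (adjusted p = 0.061 to 0.071). Rpl3-ps1 and Rpl3 were at 0.10 and 0.09, neither past the threshold.

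The per-library ratio of pseudogene to parent counts (0.5 added to each) did not overlap between the groups in 14 pairs (15.4%), beside 24 (11.3%) of the 213 pairs formed by all processed pseudogenes with a mean of at least 1 FPKM. Those 213 include the 91 pairs of the members, and several pairs share a parent. In 5 pairs the ratio was higher in si-Fndc1 and in 9 lower. The exact permutation p of each was 0.00794, the smallest possible, before any adjustment over the 91 pairs. Lack of overlap fixes that p, so here and for the pairs below it adds nothing to the lack of overlap. Members that overlap no other gene gave 8 such pairs. The 14 include both pairs in which the parent named by the symbol is not the best match by sequence.

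Glo1-ps rose while Glo1, which codes for the glyoxalase that clears methylglyoxal, did not pass the test. Its FPKM was 29.5, 28.6, 24.9, 26.4 and 27.8 in si-Control and 55.5, 45.1, 49.9, 46.6 and 52.1 in si-Fndc1 (log2 fold change 0.87 ± 0.07 (SE), adjusted p = 2e-05), and that of Glo1 was 6.90, 6.97, 7.33, 6.51 and 7.11 in si-Control and 6.85, 5.87, 7.39, 6.96 and 7.81 in si-Fndc1 (log2 fold change 0.01 ± 0.07 (SE), adjusted p = 0.93). The log2 ratio of their counts went from -2.47 ± 0.13 to -1.61 ± 0.13 (SD, n = 5 each; two-sided exact permutation p = 0.00794). On average Glo1-ps held 25.3% of the counts of Glo1, so its higher FPKM reflects the longer length divided out for Glo1. Ndufa12-ps, named for a subunit of respiratory complex I, rose by 0.58 beside 0.016 for Ndufa12.

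In the other direction Csnk2a1-ps3 was lower by 0.72 while Csnk2a1 was at 0.09 (adjusted p = 0.061). Btf3-ps1 was lower by 0.67 beside 0.07 for Btf3, and Pgam1-ps2 by 0.64 beside -0.02 for Pgam1, a glycolytic phosphoglycerate mutase, although it has no difference from it in 765 bases. Eef2 also fell (-0.38, adjusted p = 1.8e-05), and Eef2-ps2 fell further, the log2 ratio of their counts being lower by 0.72 in si-Fndc1 (exact permutation p = 0.00794). Rpl36a-ps3 was at 0.08 beside 0.70 for Rpl36a, a gene of the large subunit, and its ratio was lower by 0.64. By sequence Rpl36a-ps3 matches Rpl36al best, with 1 difference in 321 bases, and Rpl36al rose by 0.24 (adjusted p = 0.0049).

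**Figure D4:**
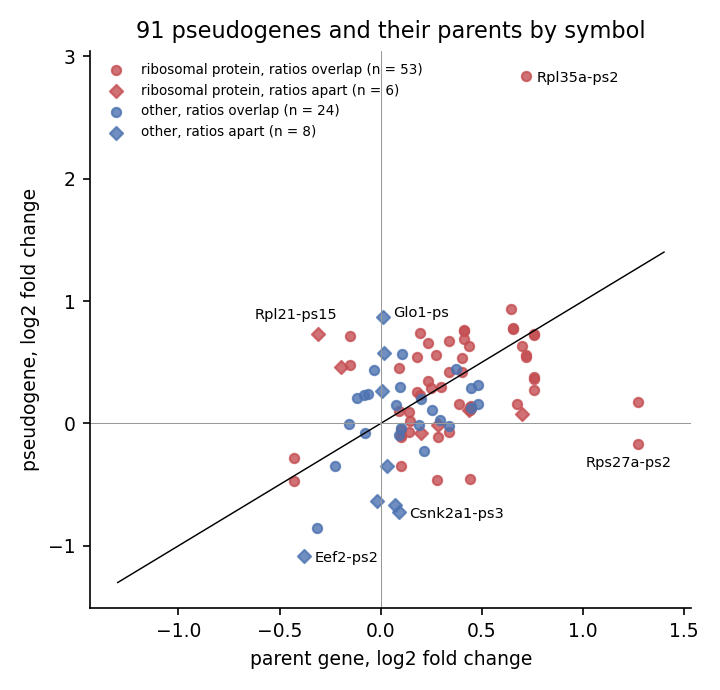
Log2 fold change (si-Fndc1 over si-Control) of 91 pseudogenes against that of the parent named by the symbol, in red for ribosomal protein genes and blue for others, with diamonds for the 14 pairs whose count ratios did not overlap between the groups. The line marks equal change, and Rpl35a-ps2 at 2.84 and Eef2-ps2 at -1.08 are the extremes.

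Other pairs with large differences of fold change rested on unstable rows. Rps27a, a fusion gene of ubiquitin and a ribosomal protein, had an FPKM of 66.2, 53.7, 48.1, 82.7 and 46.5 in si-Control and 156, 140.4, 152, 103 and 163 in si-Fndc1 (log2 fold change 1.27 ± 0.17 (SE), adjusted p = 0.00029). Its copy Rps27a-ps2 was at 138, 223, 225, 38.3 and 234 in si-Control and 96.0, 119, 97.5, 335 and 111 in si-Fndc1 (log2 fold change -0.17 ± 0.49 (SE), adjusted p = 0.82). Rps27a was highest of its group, and the copy lowest, in si-Control replicate 4, and the reverse held in si-Fndc1 replicate 4. Rps10-ps1 rose by 0.71 (adjusted p = 0.00039) beside -0.15 for Rps10, whose FPKM ran from 48.0 to 96.8 in si-Control alone. Rps27a-ps3 was at 0.18 and Rpl15-ps3 at -0.45 beside 0.44 for Rpl15, none past the threshold.

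Rpl35a-ps2 had the largest fitted rise, which came from a minority of libraries. Its FPKM was 4.96, 4.92, 6.80, 4.53 and 3.15 in si-Control and 80.4, 72.3, 6.26, 8.27 and 6.59 in si-Fndc1. Replicates 1 and 2 of si-Fndc1 were high and the other 3 within or near the range of si-Control (log2 fold change 2.84 ± 0.78 (SE), adjusted p = 0.016). The call was lost with a replicate block (adjusted p = 0.090) and under limma on log2(FPKM + 1) (adjusted p = 0.083) or log2(FPKM + 0.1) (adjusted p = 0.077). Rpl35a itself was at 34.6 ± 2.75 FPKM in si-Control and 56.7 ± 4.21 in si-Fndc1 (0.72 ± 0.07, adjusted p = 3.3e-05), with groups apart. In the same libraries 1 and 2 of si-Fndc1 Rpl35a-ps3, which carries the same difference from Rpl35a in the window printed above, had its lowest counts of that group, 1999 and 2001, against 2476 to 2928 in the other 3.

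For Gapdh and its copies the counts of each row are given, and which locus the reads came from was not tested. Gapdh had counts of 5123, 766, 4827, 4225 and 3409 in si-Control and 7637, 12892, 13449, 4344 and 780 in si-Fndc1, a wide range within both groups (1.12 ± 0.63, adjusted p = 0.2). Gm13394 had 59813, 64883, 57357, 55615 and 63469 in si-Control and 50068, 51429, 67274, 66767 and 50936 in si-Fndc1. The copies together held 90.8% to 99.4% of the counts of the family in every library. Gm12070 and Gm2606 had log2 fold changes of 0.03 and 0.44, and Gm12033 and Gm14760 of 0.22 and -0.77, of which Gm2606 passed the test (adjusted p = 0.021). Summed, Gapdh and its 6 copies gave 1774, 1779, 1752, 1647 and 1774 in si-Control and 2042, 1934, 2229.9, 2010.4 and 1904 in si-Fndc1 CPM after normalisation. The sums did not overlap between the groups (log2 fold change 0.21 ± 0.04, adjusted p = 0.0037), and their coefficient of variation was 3.20% in si-Control and 6.32% in si-Fndc1, against 46.2% and 68.7% for Gapdh alone.

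In the Rpl21 family the coding gene had only 116 to 242 counts per library, and the 3 copies held 98.2% to 99.2% of the reads. Gm10163 had counts of 5803, 5865, 5422, 5801 and 5088 in si-Control and 7545, 7337, 7529, 7464 and 6385 in si-Fndc1, Gm13370 of 4808, 4873, 4093, 4311 and 4111 in si-Control and 5548, 6332, 6062, 6820 and 4321 in si-Fndc1. Both rose, by 0.45 and 0.46 (adjusted p = 2.2e-05 and 0.00051), as did Rpl21-ps15 by 0.73 (adjusted p = 2e-05), while Rpl21 was at -0.31 (adjusted p = 0.13). The family as a whole rose by 0.50 ± 0.03 (adjusted p = 1e-05), with every si-Fndc1 library above every si-Control library.

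For Ppia, the coding gene and Gm10123 varied in opposite directions, in that libraries low in Ppia were high in Gm10123. The counts of Ppia were 26836, 38775, 31802, 22239 and 33080 in si-Control and 52011, 35244, 45082, 24861 and 39820 in si-Fndc1, and those of Gm10123 15662, 6900, 8754, 15602 and 5492 in si-Control and 9847, 25816, 15039, 29093 and 9873 in si-Fndc1. Neither passed the test, but their sum with Gm13493 and Gm9234 was 575, 658, 584, 530.2 and 591 in si-Control and 902, 867, 887, 781 and 907 in si-Fndc1 CPM and rose by 0.56 ± 0.06 (adjusted p = 6.4e-05). The share of the copies ranged from 16.1% to 55.2%. Eno1b, an enolase gene of glycolysis chosen for this description after its values were seen, had 7951 counts in si-Control replicate 1 and 24446 to 29861 in the other si-Control libraries. Its copy Gm4735, with 3 differences in 1636 bases, passed the test as a fall (-0.46, adjusted p = 0.015), and the sum of both did not (-0.19 ± 0.11, adjusted p = 0.22).

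**Figure D5:**
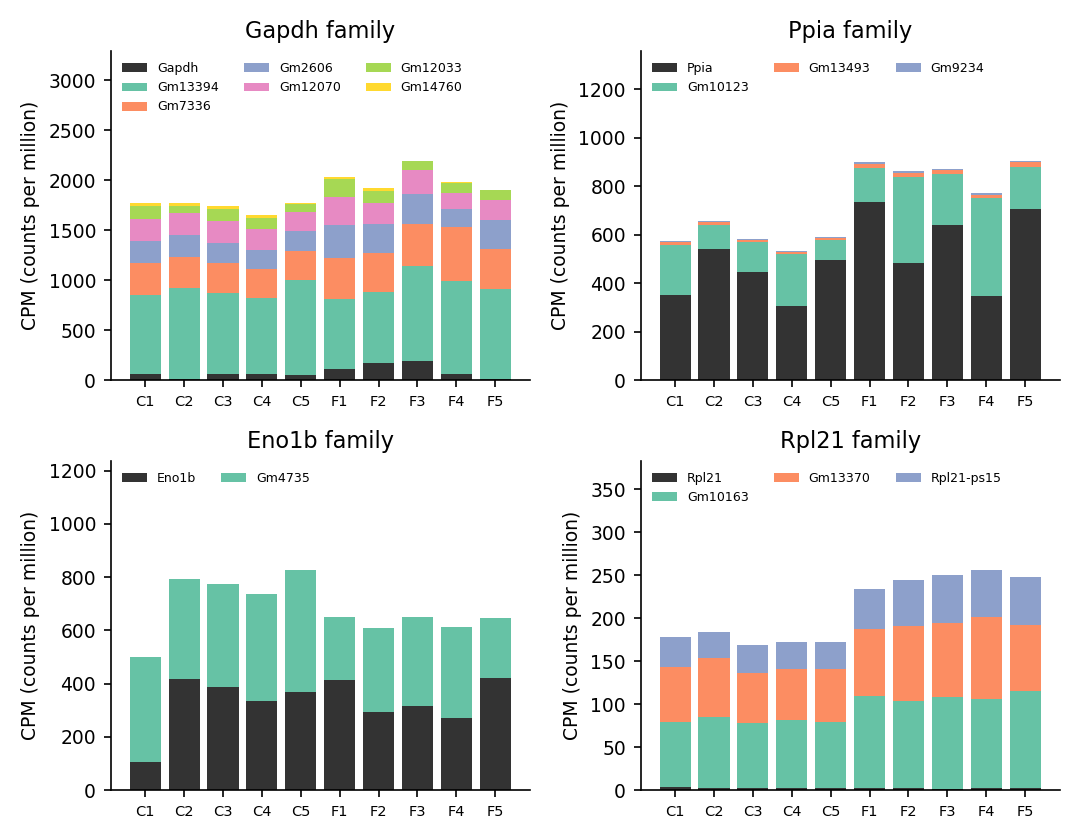
CPM (from total counts) in each library (C1 to C5 si-Control, F1 to F5 si-Fndc1) of 4 coding genes (black) and the processed pseudogenes that match them best (colours), stacked. The black parts of Gapdh and Ppia vary widely within a group while the stacks of a group stay close together, and the stacks of Rpl21 and Ppia are higher in all F libraries.

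Of the 6 members that match Rps2 best by sequence, Gm12922 and Gm12366 fell (-0.66 and -0.51). Rps2-ps13, Gm6311, Gm10420 and Gm5786 did not pass the test, with values from -0.49 to 0.91. Rps2-ps13, the highest of them, had an FPKM of 429.8, 280.2, 139.8, 377 and 328 in si-Control and 234, 161, 208, 264 and 253 in si-Fndc1, and its groups overlapped (log2 fold change -0.47 ± 0.25 (SE), adjusted p = 0.18); without si-Control replicate 3 it was at -0.65 (adjusted p = 0.011). Rps2 fell as well (-0.43, adjusted p = 0.012). Rps2-ps8, named for Rps2 but without a sequence match here, was at -0.28 (adjusted p = 0.10). Of the 4 copies of Rpl23a, Gm10335 and Rpl23a-ps3 rose by 0.92 and 0.93, and Gm3362 and Gm10132 were at 0.21 and 0.39 (adjusted p = 0.10 and 0.11). Rpl23a rose by 0.64.

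Summing each coding gene with the members that match it best gave 141 families, 102 of them with a single member. The members held a median of 15.7% of the counts of a family, and over 50% in 20 families. In the others the coding gene held most of the counts, unlike in the Gapdh and Rpl21 families above. In a fit with these sums in place of their parts, 77 families rose and 9 fell, with a median log2 fold change of 0.23, where 17.5% of all 13340 rows rose and 16.9% fell. Of the 48 ribosomal protein families 34 rose and 3 fell (median 0.30), and of the 93 others 43 rose and 6 fell (median 0.18). With the length offset 74 families rose and 15 fell, a smaller shift than for the single members. The sum takes the length of its coding gene in that offset. In 71 families both the sum and the coding gene alone passed the test, in 15 only the sum and in 3 only the coding gene.

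The members varied more between replicates than other genes. The median coefficient of variation of their CPM was 12.8% in si-Control and 13.1% in si-Fndc1, against 8.08% and 8.44% over all tested genes, and 7.15% and 6.12% for the 141 summed families. The coding genes of those families alone had 8.02% and 7.12%. In 31 members (10.3%) the libraries of a group were over 4-fold apart, as in 5.20% of all tested genes, and 4 of these 31 passed the test. A single member, Gm10095, was at 0 counts in some libraries, si-Control replicate 3 and si-Fndc1 replicates 1 to 3, with 436 to 1419 in the rest.

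The number of differences from the best match did not order the calls. Of 37 members without a difference 9 rose and 2 fell, of 51 with 1 or 2 differences 20 and 2, of 61 with 3 to 5 differences 21 and 8, and of 60 with 6 or more 22 and 6. Their median log2 fold changes were 0.24, 0.23, 0.18 and 0.18. The median absolute difference of log2 fold change from the matched gene was 0.28, 0.28, 0.40 and 0.29.

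At the lower end of the list, Rpl18-ps1, Rab7-ps1 and Gm6988 were the last inside, with mean FPKM of 10.0, 9.82 and 9.76, and Cox6c2, Gm13453 and Gm15801 the first outside, with 9.63, 9.47 and 9.46. In si-Control alone 14 members had a mean below that of the last member, of which 10 rose, and in si-Fndc1 alone 8 did, of which 4 fell. They include Gm15526 and Gm14287 (6.58 and 6.82 FPKM in si-Control) and Eef2-ps2 and Csnk2a1-ps3 (7.33 and 9.46 in si-Fndc1), named above among the largest changes. Such members reached the list through the group in which they were higher, so the choice favours rises among the former and falls among the latter.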

How the data were processed

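RNA-sequencing of 10 C2C12 libraries, 5 si-Control and 5 si-Fndc1, was analysed from the authors' table of 55359 genes. The deposited counts are whole-number read counts per gene without normalisation. The deposited FPKM values divide them by a length per gene and library size, and are listed as 0.0001 where the count is 0, which was read as 0. The sources disagree on how these were made: the paper names TopHat, mm10 and htseq-count, the series text STAR and mm9, and the submitters' processing notes GRCm39, cutadapt 1.9 and FastQC. The paper's methods also name 4 libraries, whereas the labels give groups for all 10, which were used. The table names no build, so none of its coordinates are printed, and how reads with several matches were treated, and whether strand was used, is not given in the sources used here. Groups come from the labels, and 0 columns of values lacked a sample. No labels or methods give a batch.

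The 13548 genes whose FPKM averaged at least 0.5 were tested on counts by edgeR 4.0.16 (quasi-likelihood, TMM) in R 4.3.3, with Benjamini-Hochberg adjustment over all of them. On simulated counts for these genes the script was tested before use. Members' loci were found by gene identifier in GENCODE vM1 on NCBIM37, up to 3000 bases, and aligned to its coding transcripts with BLAST 2.17.0. Ratios of counts were compared by two-sided exact permutation tests (scipy 1.17.1). Alternatives were DESeq2 1.42.0, RLE factors, 2 other filters, limma 3.58.1 on log2(FPKM + 1) and log2(FPKM + 0.1), leaving out each library, a replicate block, an offset for transcript length per library (a spline with 5 degrees of freedom), and others named below. A joint GC and length offset was void, since under 80% of the members have a sequence here. The members and lists were chosen with earlier results of these data known. Genes named are the 10 highest members, the 8 largest rises and 8 largest falls with groups that do not overlap, 8 pairs with the highest pseudogene and 8 with the largest difference in fold change from the parent (at least 50 counts in both), 3 on each side of the threshold, and Fndc1. Families, and other genes given beside these, were named after their values were seen. A gene, a match and a sequence window that these rules would name are not reported here.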

Additional observations from a re-analysis of the deposited data

Results flagged for a closer look

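In 9 of 120 groups of 5 libraries, taken over the 60 genes named by rule, a library lay far from the other 4 by Dixon's criterion at the 95% level, which chance gives in about 1 of 20 groups. The library si-Fndc1 replicate 4 stood high for 4 processed pseudogenes. Gm5559 was at 469 FPKM there, against 322 to 348 in the other si-Fndc1 libraries, Gm7336 at 393 against 286 to 306, Rpl23a-ps3 at 159 against 94.8 to 109, and Rps27a-ps2 at 335 against 96.0 to 119. In si-Fndc1 replicate 1 Rpl3-ps1 was high at 338 FPKM against 291 to 303, and Rpl21-ps15 low at 86.7 against 101 to 104. In si-Fndc1 replicate 5 Gm2999 was at 14.1 FPKM against 10.1 to 10.6 and the parent gene Csnk2a1 at 25.3 against 23.5 to 23.9. In si-Control replicate 1 the parent gene Rpl10 was at 72.7 FPKM against 87.8 to 88.4. Of these genes, those that passed the test still did when the library in question was left out.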

How the results depend on the processing

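With the transcript length offset 66 processed pseudogenes rose and 47 fell (median 0.0498), against 100 and 26 (median 0.21), and 74 families rose and 15 fell, against 77 and 9. The cause was not tested. The replicate numbers did not pair the samples (correlation of deviations from the group means -0.049 to 0.046 for the same number, and 1 of 5 libraries correlated best with its own number). A replicate block gave 3572 genes called in place of 4663, 87 members that rose and 22 that fell, and 3 parents that fell in place of 5. The block with the length offset gave 62 members that rose and 42 that fell (median 0.042). Under it Rpl35a-ps2 lost its call (1.96, adjusted p = 0.090, and 1.78 with both), as it did under limma. Parents that fell were 3 without the filter on low values, with filterByExpr and with parent and pseudogenes summed, the last of which turned Rpl21 from -0.31 to 0.67. By construction with fewer or more members, 57 rose among those that overlap no other gene, where 8 pairs had ratios apart, and 227 rose and 58 fell among all 938 processed pseudogenes. Leaving out each library in turn gave 4000 to 4627 genes called, 85 to 103 members that rose, 23 to 26 that fell, a median of 0.19 to 0.24, 14 to 19 pairs with ratios apart, 23 to 35 parents that rose and 3 to 5 that fell, and 69 to 86 families that rose and 8 to 10 that fell. Parents that fell were 3 without si-Control replicate 1, 2 or 3 or si-Fndc1 replicate 1, 2 or 4. The other 150 values for these totals under an alternative stayed within 1.5 times the reported count, or within the spread between libraries for the median. Of the values of named genes under an alternative, 1093 kept their direction or their side of the threshold, 51 lost a call and 9 gained one, and the calls of Gm15459, Rpl17-ps10, Tpt1 and Rpl17 were lost most often. A joint offset for GC content and length was not run, because too few members have a sequence here. All processed pseudogenes described but Gm10095 had counts in every library, so depth limits mainly the copies with few counts of their own.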
